A study of Mus musculus with 4 samples.

Results

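The genes described here are 10 genes of the vascular endothelial growth factor (VEGF) system and of the endothelium in mouse brown adipose tissue (BAT). They were chosen by symbol as every deposited row named Vegfa, Vegfb, Vegfc, Kdr, Flt1, Flt4, Nrp1, Pecam1, Cdh5 or Tek, which gave 10 of 55387 rows. RNA sequencing had been carried out on whole BAT of 4 male mice aged 15 weeks, 1 library per mouse, with 2 Sox4f/f mice and 2 littermates labelled Sox4-MKO. Both genotypes carry floxed Sox4 alleles, and the Sox4-MKO mice also carry a Myf5-Cre transgene, which acts in the Myf5 lineage that gives rise to brown fat and to skeletal muscle. A Cre of this kind is not specific to brown adipocytes. The labels call the control genotype WT and the cells adipocytes, but the tissue was not sorted, and endothelial, macrophage and skeletal muscle transcripts were all measured in it.

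VEGF ligands are secreted proteins that bind receptor tyrosine kinases on endothelial cells. Vegfa binds Kdr (VEGFR2), its main signalling receptor, and Flt1 (VEGFR1), which binds it tightly but signals weakly. Vegfb binds Flt1, Vegfc binds Flt4 (VEGFR3) and Kdr, and Nrp1 is a coreceptor. Brown adipocytes are themselves a source of Vegfa, and BAT has a dense capillary bed that brings in oxygen and fuel and carries heat away.

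In the libraries labelled Sox4-MKO, 9 of the 10 genes had a lower mean level than in Sox4f/f and 1, Vegfc, had a higher one, where 56% of all 12877 genes tested were below 0. The ligands Vegfa and Vegfb and the coreceptor Nrp1 were lower at an unadjusted p under 0.05, to 0.707, 0.657 and 0.701 of the Sox4f/f mean FPKM (fragment counts scaled by transcript length and by library size). The receptors Kdr, Flt1 and Flt4 were also below the Sox4f/f libraries in both Sox4-MKO libraries but did not pass that threshold. Pecam1, Cdh5 and Tek, which mark endothelial cells, overlapped between the genotypes. After Benjamini-Hochberg adjustment none of the 10 genes passed, and neither did any gene of the whole table (0% at an adjusted p under 0.05 in limma, lowest adjusted p 0.191).

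The promoters of the 3 genes among the 10 that passed the unadjusted threshold are shown as the 250 bases upstream of the annotated start, read on the strand of the gene, from RefSeq on GRCm38.p6. Of the 10 genes and Vegfd, 9 of 11 matched the promoter table, and Pecam1 and Cdh5 did not. Capitals mark GGGCGG (the SP1 box) and AGGTCA (the half-site of estrogen-related receptors) on either strand. The Vegfa window is chr17:46032378-46032627, the Vegfb window chr19:6987652-6987901, both on the minus strand, and the Nrp1 window chr8:128358823-128359072 on the plus strand.
Vegfa: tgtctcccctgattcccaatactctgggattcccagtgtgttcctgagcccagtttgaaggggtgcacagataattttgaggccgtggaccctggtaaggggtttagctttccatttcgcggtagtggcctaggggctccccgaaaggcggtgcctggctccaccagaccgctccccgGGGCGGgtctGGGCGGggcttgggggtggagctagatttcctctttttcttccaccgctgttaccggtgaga
Vegfb: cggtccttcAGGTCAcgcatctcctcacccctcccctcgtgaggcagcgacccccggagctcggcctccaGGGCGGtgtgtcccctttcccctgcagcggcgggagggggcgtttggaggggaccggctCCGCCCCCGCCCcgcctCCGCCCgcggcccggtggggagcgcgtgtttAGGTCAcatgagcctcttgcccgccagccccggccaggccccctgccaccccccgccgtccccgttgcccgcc
Nrp1: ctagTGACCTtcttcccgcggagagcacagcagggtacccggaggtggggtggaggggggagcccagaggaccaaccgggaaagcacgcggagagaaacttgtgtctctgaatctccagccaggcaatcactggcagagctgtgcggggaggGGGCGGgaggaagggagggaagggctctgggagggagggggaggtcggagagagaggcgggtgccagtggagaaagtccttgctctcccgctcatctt
The Vegfa window held 2 copies of GGGCGG and the Vegfb window 4, with 2 of AGGTCA, and the Nrp1 window held 1 of each. Those of the 10 genes that did not pass held GGGCGG as often, with 2 copies in the Vegfc and Kdr windows and 3 in those of Flt1 and Flt4, while Tek held none. Vegfd, which is not one of the 10 genes and passed higher, held none. GGGCGG was present in 32.7% of 32851 promoters of the same length and AGGTCA in 14.0%. The windows of Vegfa, Vegfb and Nrp1 had a GC content of 59.2%, 76.4% and 64.4%, against 61.6% to 71.6% for Vegfc, Kdr, Flt1 and Flt4 and a median of 52.4% over all promoters. The letters ACGTG, the core of the hypoxia response element, were found on neither strand of the 9 matched windows and in 16.6% of all promoters. CCGGAA, the core bound by ETS factors, occurred once in the Kdr window and in 12.0% of all, and ACAAAG, a core bound by SOX factors, once in the Tek window and in 16.5% of all. No match of a motif overlapped a match of another, and a match describes the sequence only.

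Sox4 itself (chr13:28948919-28953713, minus strand, GRCm38) had values of 1.98 and 1.06 (FPKM) in the controls, against 0.98 and 3.06 in the mice labelled Sox4-MKO. The highest of the 4 values was thus in a Sox4-MKO library, and the log2 fold change was 0.20 ± 0.43 (SE, unadjusted p = 0.673, adjusted p = 0.843). Its sign turned when Sox4f/f mouse 2 or Sox4-MKO mouse 2 was left out, to -0.07 and -0.32. The genotype is therefore given throughout as the label has it, and whether the fragments lie in the floxed part was not tested. At the protein level, the study reported strongly reduced SOX4 in BAT of Sox4-MKO mice that were younger than those sequenced here. Other cell types also moved with the label. Of 8 skeletal muscle genes tested, all 8 were higher and 6 passed the unadjusted threshold, with summed levels of 184 and 677 FPKM in Sox4f/f and 13290 and 2201 FPKM in Sox4-MKO. Of 10 macrophage genes, all 10 were higher and 8 passed (214 and 319 against 448 and 439 FPKM), and all 7 adipocyte progenitor genes were higher and passed (249 and 277 against 485 and 446 FPKM). Of 8 brown adipocyte genes, all 8 were lower and 6 passed (7517 and 7395 against 3672 and 4419 FPKM). Among all tested genes 7.95% passed higher and 8.28% lower, and 56% were below 0. No gene of these 4 lists was listed at 0 in any library, and the part of these differences in the results below was not tested. In bulk tissue, fewer endothelial cells and less RNA per endothelial cell cannot be told apart.

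**Figure D1:**
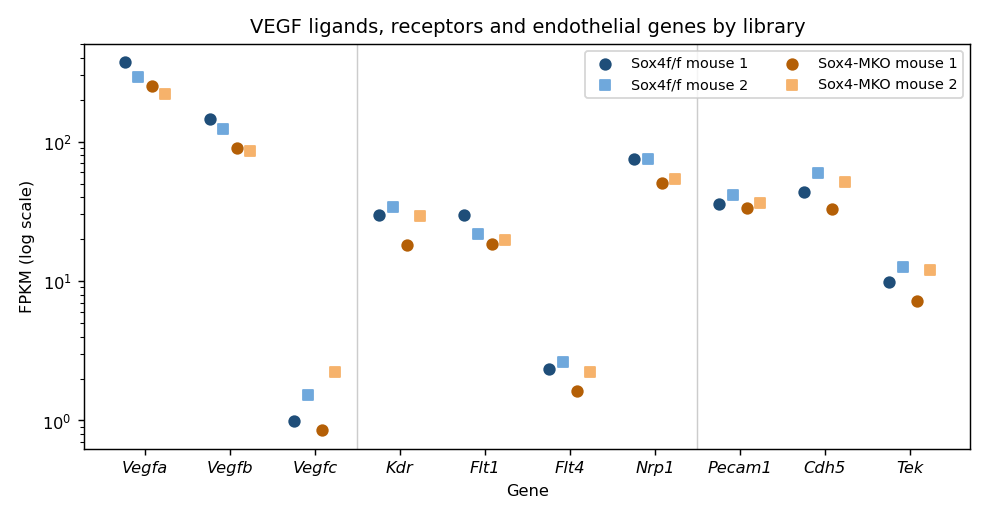
FPKM of each of the 10 genes (log axis) in each of the 4 libraries, in the order ligands, receptors and endothelial markers, with vertical lines between the classes and 1 point per mouse. Vegfa lies between 218 and 369 FPKM and Vegfc between 0.85 and 2.21 FPKM, and for Vegfa, Vegfb, Kdr, Flt1, Flt4 and Nrp1 both Sox4-MKO points lie below both Sox4f/f points.

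FPKM is scaled by transcript length, so levels can be set side by side between genes. Over the 4 libraries Vegfa was the most abundant of the 10, followed by Vegfb, Nrp1, Cdh5, Pecam1, Kdr, Flt1, Tek, Flt4 and Vegfc. The libraries of Vegfa and Vegfb did not overlap, nor did those of Vegfb and Nrp1, of Flt1 and Tek, or of Tek and Flt4. Neighbours whose ranges overlapped were Nrp1 and Cdh5, Cdh5 and Pecam1, Pecam1 and Kdr, Kdr and Flt1, and Flt4 and Vegfc. Counting error was largest for the lowest, since an estimated 26 to 88 fragments per library fell on Vegfc and 129 to 226 on Flt4, against 10910 to 17249 on Vegfa.

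Among the ligands, Vegfa (chr17:46016993-46032369, minus strand) was measured at 369 and 290 FPKM in Sox4f/f and 249 and 218 FPKM in Sox4-MKO. The 2 genotypes did not overlap, with means of 329.8 ± 55.9 and 233.2 ± 22.1 FPKM (SD, n = 2 each). On the scale of log2(FPKM + 1) the difference was -0.49 ± 0.17 (SE, unadjusted p = 0.0357, adjusted p = 0.273 in limma). The p was over 0.05 when any library other than Sox4f/f mouse 2 was left out, with a fold change of -0.32 without Sox4f/f mouse 1, and -0.59 and -0.40 when Sox4-MKO mouse 1 or mouse 2 was left out. In a fit without the moderation of variances across genes its p was 0.131. Vegfa has 13 annotated transcripts, and a value per gene does not separate its isoforms, which differ in how they bind heparan sulphate.

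Vegfb (chr19:6982473-6987651, minus strand), a ligand of Flt1 linked to fatty acid uptake, was at 145 and 123 FPKM in Sox4f/f and 90.6 and 85.6 FPKM in Sox4-MKO. This was the largest log2 fold change of the 10 genes, -0.60 ± 0.13 (SE, unadjusted p = 0.00770, adjusted p = 0.214). Without Sox4f/f mouse 1 its p was 0.051, and it stayed under 0.05 without each of the other libraries. The ratio of Vegfa to Vegfb was 2.55 and 2.36 in Sox4f/f and 2.75 and 2.54 in Sox4-MKO, so the ratio overlapped between the genotypes. Across the tested genes 8.28% were lower at an unadjusted p under 0.05 and 7.95% higher, 16.2% in all, and 3 of the 10 genes were lower and 0 higher. Without Sox4f/f mouse 1, the log2 fold changes of Vegfa, Vegfb and Nrp1 were -0.32, -0.48 and -0.51.

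Vegfc (chr8:54077606-54187096, plus strand), the main growth factor of lymphatic vessels, was at 0.99 and 1.51 FPKM in Sox4f/f and 0.85 and 2.21 FPKM in Sox4-MKO. Its genotypes overlapped, with the lowest and the highest value both in Sox4-MKO. The log2 fold change of 0.12 (95% interval -0.81 to 1.06) did not pass (unadjusted p = 0.742) and had the other sign when Sox4f/f mouse 1 or Sox4-MKO mouse 2 was left out or the libraries were quantile normalized (-0.04, -0.27 and -0.07).

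Vegfd, the other ligand of Flt4 and not one of the 10 genes, went the other way from Vegfa and Vegfb. It was at 1.92 and 2.95 FPKM in Sox4f/f and 6.17 and 4.89 FPKM in Sox4-MKO, a log2 fold change of 0.94 ± 0.24 (SE, unadjusted p = 0.0129, adjusted p = 0.224). The genotypes did not overlap, although the value rests on an estimated 53 to 163 fragments per library, and the p was 0.0751 without Sox4f/f mouse 1 and 0.0675 without Sox4-MKO mouse 1. Pgf, placental growth factor, was at 1.43 and 1.76 against 1.23 and 0.76 FPKM (unadjusted p = 0.189). Sema3f, a semaphorin that competes with VEGF for neuropilins, gave an unadjusted p of 0.248, and Sema3a was below the expression threshold in both genotypes.

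The receptors Kdr, Flt1 and Flt4 had lower means in Sox4-MKO, with wider errors than Vegfa. Kdr (chr5:75932827-75978458, minus strand) was at 29.6 and 34.02 FPKM in Sox4f/f and 18.1 and 29.4 FPKM in Sox4-MKO. The second Sox4-MKO library was almost level with the first Sox4f/f library, and the log2 fold change of -0.44 (95% interval -1.12 to 0.24) did not pass (unadjusted p = 0.152). Without Sox4-MKO mouse 2 it was -0.78 with an unadjusted p of 0.0143. Flt1 (chr5:147561604-147726011, minus strand) was at 29.7 and 21.7 FPKM against 18.3 and 19.5 FPKM, a difference on the log2 scale of -0.41 (95% interval -0.90 to 0.09, unadjusted p = 0.0864). Both Sox4-MKO libraries were below both of Sox4f/f, and without Sox4f/f mouse 2 the unadjusted p was 0.0347. Flt1 has 6 annotated transcripts, among which a value per gene does not separate the soluble form that binds VEGF without signalling.

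Flt4 (chr11:49609263-49652739, plus strand), the receptor of Vegfc found on lymphatic and sprouting endothelium, was at 2.32 and 2.62 FPKM in Sox4f/f and 1.62 and 2.21 FPKM in Sox4-MKO. The groups did not overlap, but the log2 fold change of -0.26 (95% interval -0.83 to 0.31) did not pass (unadjusted p = 0.291). The ratio of Kdr to Flt1 was 0.998 and 1.57 in Sox4f/f and 0.991 and 1.51 in Sox4-MKO, so the genotypes overlapped and the mice of 1 genotype differed by more.

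Nrp1 (chr8:128358604-128503363, plus strand), a coreceptor of VEGF and semaphorins that is also made outside the endothelium, had the smallest standard error of the 10 genes. It was at 74.5 and 75.1 FPKM in Sox4f/f and 50.6 and 54.2 FPKM in Sox4-MKO. Its log2 fold change was -0.51 ± 0.11 (SE, unadjusted p = 0.00752, adjusted p = 0.214), and its unadjusted p stayed under 0.05 without each library in turn, the only one of the 10 genes of which that held. The related coreceptor Nrp2, of veins and lymphatic vessels, was at 35.4 and 44.7 against 23.1 and 30.0 FPKM, with a difference on the log2 scale of -0.58 ± 0.20 (unadjusted p = 0.0356, adjusted p = 0.273). Leaving out any library but Sox4-MKO mouse 2 put the p of Nrp2 over 0.05, the highest being 0.183.

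**Figure D2:**
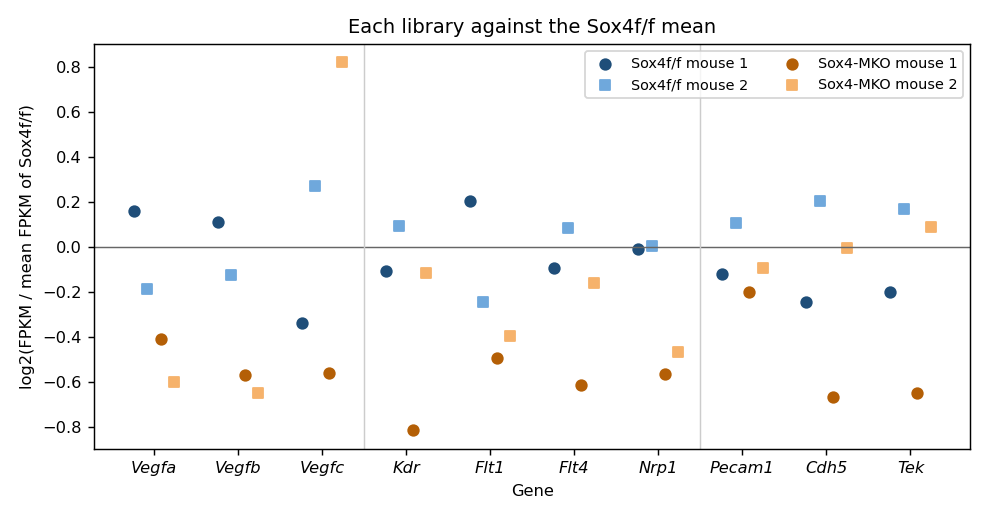
Log2 of the FPKM in each library over the mean FPKM of the 2 Sox4f/f libraries (linear axis, 1 point per mouse, vertical lines between ligands, receptors and endothelial markers). Nrp1 has its 2 points of each genotype close together, whereas Cdh5 and Tek have mouse 2 above mouse 1 in both genotypes.

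Pecam1 (chr11:106654217-106750628, minus strand), an adhesion protein of endothelial cells, platelets and some leukocytes, was at 35.6 and 41.6 FPKM in Sox4f/f and 33.6 and 36.3 FPKM in Sox4-MKO. Cdh5 (chr8:104101625-104144511, plus strand), the cadherin of endothelial junctions, was at 43.8 and 59.8 against 32.7 and 51.7 FPKM. Tek (chr4:94739289-94874976, plus strand), the angiopoietin receptor Tie2, was at 9.80 and 12.6 against 7.17 and 12.0 FPKM. The genotypes overlapped for all 3 markers. Their log2 fold changes were -0.14 (95% interval -0.50 to 0.22, unadjusted p = 0.367), -0.31 (-1.04 to 0.43, unadjusted p = 0.323) and -0.24 (-0.97 to 0.50, unadjusted p = 0.434) in limma, and the 3 intervals hold both 0 and a difference as large as that of Vegfa. Without Sox4-MKO mouse 1, the sign of Cdh5 and Tek turned (0.01 and 0.09).

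Mouse 2 exceeded mouse 1 in both genotypes for Cdh5 (1.37-fold in Sox4f/f, 1.58-fold in Sox4-MKO), Tek (1.29-fold and 1.67-fold) and Kdr (1.15-fold and 1.63-fold). Vegfa went the other way, at 0.786-fold and 0.874-fold, and Nrp1 was near level at 1.01-fold and 1.07-fold. For Cdh5 and Tek the mice of 1 genotype thus differed by more than the means of the genotypes did. Over the 10 genes, 6 had both Sox4-MKO libraries below both Sox4f/f libraries and 0 had them above, where 29.6% of all tested genes were below in this way and 21.7% above. The median log2 fold change was -0.36 for the 10 genes and -0.05 for all tested genes.

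**Figure D3:**
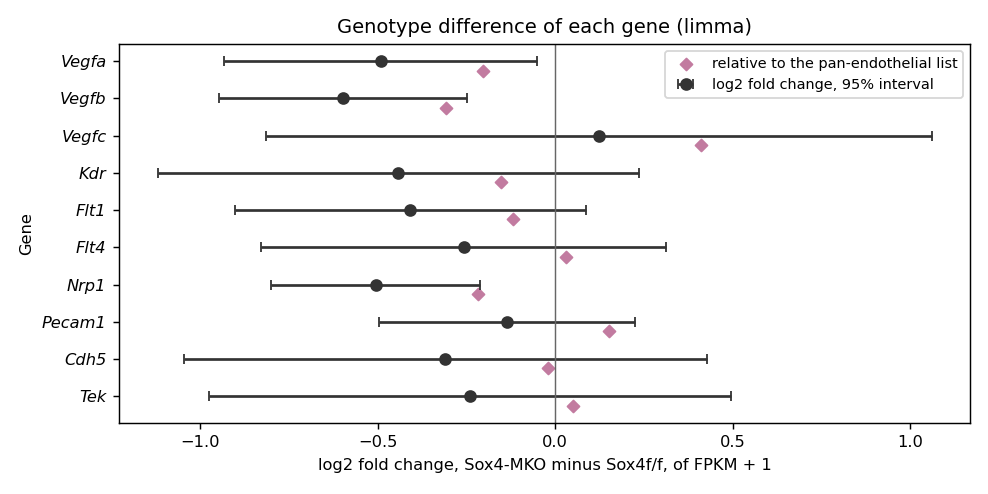
Log2 fold change of each of the 10 genes (circles, with the 95% interval of the limma fit) on the scale of log2(FPKM + 1), Sox4-MKO minus Sox4f/f, and the same change after each library was set relative to the median of the pan-endothelial list (diamonds). The intervals of Vegfa, Vegfb and Nrp1 lie below 0, and after the rescaling Flt4, Pecam1 and Tek lie above 0.

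To set the genes against the amount of endothelial RNA in each library, each was divided by Cdh5 within its library, a ratio that does not depend on how a library was scaled. The ratio of Vegfa to Cdh5 was 8.43 and 4.85 in Sox4f/f and 7.61 and 4.21 in Sox4-MKO, and that of Kdr was 0.677 and 0.569 against 0.554 and 0.570. For Nrp1 it was 1.70 and 1.26 against 1.55 and 1.05, and for Tek 0.224 and 0.211 against 0.219 and 0.231. Vegfc was the only one of the 9 ratios that did not overlap, at 0.0226 and 0.0253 against 0.0260 and 0.0428. These ratios rest on an estimated 33 and 45 Vegfc fragments in Sox4f/f and 26 and 88 in Sox4-MKO, so counting error is large beside the gap. An exact two-sided permutation test over the libraries allows no p under 0.333 with 2 against 2, so no ratio could have passed it. When each library was instead set relative to a list of 31 pan-endothelial genes, the same amount was added to the log2 fold change of every gene. The median of all tested genes moved from -0.05 to 0.24. In that fit 0 of the 10 genes passed, and over all tested genes 165 passed lower and 2667 higher. On that scale Vegfa was at -0.20, Vegfb at -0.31 and Nrp1 at -0.22, with Flt4, Pecam1 and Tek above 0 (0.03, 0.15 and 0.05).

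The wider endothelial list had the same median direction as the 10 genes, with members on both sides. Of 31 pan-endothelial genes, all tested, 21 were lower and 10 higher, with a median log2 fold change of -0.32. Those that passed the unadjusted threshold were 6 lower and 2 higher, and 15 had both Sox4-MKO libraries below both of Sox4f/f while 5 had them above. Over all tested genes these shares were 8.28% lower, 7.95% higher, 29.6% below and 21.7% above, so that the 2 that were higher and the 5 above were no more than the background. Without Sox4f/f mouse 1 the median of the list was -0.25, beside -0.03 for all tested genes. Egfl7, a matrix protein secreted by endothelial cells, was at 123.8 and 123.7 FPKM in Sox4f/f and 78.5 and 72.7 FPKM in Sox4-MKO, a log2 fold change of -0.70 ± 0.11 (unadjusted p = 0.00189, adjusted p = 0.196). Its unadjusted p stayed under 0.05 without each library in turn. Sox18, an endothelial transcription factor, was at 54.6 and 41.4 against 30.8 and 25.5 FPKM (log2 fold change -0.74 ± 0.19, unadjusted p = 0.0137), with a p over 0.05 without Sox4f/f mouse 1 or Sox4-MKO mouse 2. The others lower at that threshold were Robo4, Tie1, Arhgef15 and Palmd, and Robo4, Arhgef15 and Palmd each lost it in 3 of the 4 fits that left out a library.

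The 2 that were higher were Cd34, at 21.2 and 22.1 against 42.1 and 32.8 FPKM (log2 fold change 0.75 ± 0.16, unadjusted p = 0.00706), and Plvap, the diaphragm protein of fenestrated capillaries, at 7.76 and 8.93 against 12.1 and 11.4 FPKM (0.45 ± 0.15, unadjusted p = 0.0324). Plvap did not pass whichever library was left out (p of 0.0686 to 0.166 in limma), and the p of Cd34 was 0.0529 without Sox4f/f mouse 1. Cd34 is also made by adipocyte progenitors, whose list was higher in the same libraries, and the source of its fragments was not tested. Cldn5, the tight junction claudin, had the widest spread, at 28.9 and 77.7 against 14.0 and 34.6 FPKM, and the difference of -1.07 on the log2 scale did not pass (unadjusted p = 0.152). Adgrf5, among the most abundant of the list, was at 69.0 and 63.1 against 51.5 and 62.8 FPKM (-0.21, unadjusted p = 0.216).

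Of the angiopoietin and Tie genes, 4 of 6 were tested and all 4 were lower, with 1 passing. Among all tested genes 56% were below 0 and 8.28% passed lower. Tie1, the partner receptor of Tek, was at 29.7 and 32.2 FPKM in Sox4f/f and 19.2 and 22.4 FPKM in Sox4-MKO (log2 fold change -0.55 ± 0.14, unadjusted p = 0.0124, adjusted p = 0.222). Its p was 0.0501 without Sox4f/f mouse 1 and 0.0810 without Sox4f/f mouse 2. Ptprb, the phosphatase that restrains Tek, was at 18.9 and 19.9 against 14.3 and 16.2 FPKM (unadjusted p = 0.0642 in limma), and Svep1 at 16.5 and 14.7 against 13.0 and 10.1 FPKM (unadjusted p = 0.0717). The ligand Angpt1 gave -0.15 (unadjusted p = 0.326 in limma), and Angpt2 and Angpt4 were below the expression threshold.

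Downstream of the receptors, 34 genes of VEGF receptor signalling (adaptors, kinases and their effectors) showed no common direction. Of 31 tested, 15 were lower, 15 were higher and Nck2 was at 0.00, and the median was 0.00 beside -0.05 for all tested genes. The unadjusted threshold was passed by 0 lower genes and 2 higher ones, no more than the 8.28% and 7.95% of all tested genes. Pik3r1, the regulatory subunit of phosphoinositide 3-kinase, was at 26.4 and 23.9 FPKM in Sox4f/f and 39.0 and 50.2 FPKM in Sox4-MKO (log2 fold change 0.79 ± 0.17, unadjusted p = 0.00653), with a p of 0.0535 without Sox4f/f mouse 2. Prkca, a protein kinase C, was at 1.77 and 1.78 against 4.47 and 2.71 FPKM (0.70 ± 0.26, unadjusted p = 0.0473), which lost the threshold without any library but Sox4-MKO mouse 2 and was at 0.42 without Sox4-MKO mouse 1. These genes are active in most cell types of the tissue, and the most abundant of them, Hspb1, Cdc42 and Hsp90aa1, overlapped between the genotypes.

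**Figure D4:**
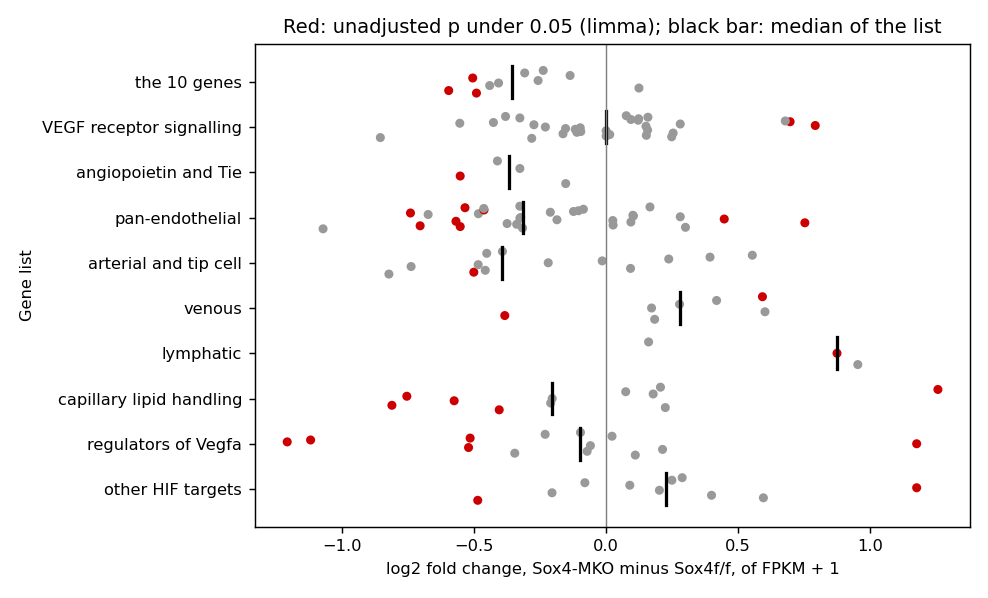
Log2 fold change on the scale of log2(FPKM + 1), Sox4-MKO minus Sox4f/f, of each tested gene of the 10 genes and of 9 lists (1 point per gene, red at an unadjusted p under 0.05 in limma, black bar at the median of the list). The medians of the 10 genes and the pan-endothelial list are -0.36 and -0.32, that of VEGF receptor signalling is 0.00, and those of the venous and lymphatic lists are 0.28 and 0.87.

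The gene lists of vessel types differed in the direction of their medians, on few genes each. Which cells the fragments of these genes came from was not tested. The macrophage and adipocyte progenitor lists were higher in the same Sox4-MKO libraries. Of 11 genes of capillary lipid handling, 6 were lower and 5 higher, and 4 passed lower and 1 higher, again beside 8.28% and 7.95% of all tested genes. Aqp1, a water channel of capillaries, was at 243 and 250 FPKM in Sox4f/f and 161 and 131 FPKM in Sox4-MKO (log2 fold change -0.76 ± 0.14, unadjusted p = 0.00418), and it passed without each library in turn. Tcf15, a transcription factor of fatty acid handling in capillaries, was at 19.5 and 29.3 against 13.1 and 13.3 FPKM (-0.81 ± 0.22, unadjusted p = 0.0169). It passed only when Sox4f/f mouse 1 was the library left out, and was at -0.53 without Sox4f/f mouse 2. Rgcc and Gpihbp1, the latter the anchor of lipoprotein lipase in the capillary lumen, also passed lower (unadjusted p = 0.0472 and 0.0276). Each lost the threshold in 3 of the 4 fits that left out a library, and Rgcc was at -0.31 without Sox4f/f mouse 1 against -0.58 with it.

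Fabp5, a fatty acid binding protein of endothelium and also of macrophages, was the 1 that passed higher, at 59.7 and 84.4 against 193 and 151 FPKM (1.26 ± 0.22, unadjusted p = 0.00326). Fabp4, Lpl and Cd36, which adipocytes also make in abundance, overlapped between the genotypes (unadjusted p = 0.742, 0.375 and 0.384). Of 13 tested genes of arterial and tip cells, 9 were lower and 4 higher with a median of -0.39. Those that passed were 1 lower and 0 higher, no more than the 8.28% and 7.95% of all tested genes. The 1 was Notch1, at 10.4 and 10.5 against 7.20 and 6.98 FPKM (-0.50 ± 0.14, unadjusted p = 0.0168). Its p was over 0.05 without each library in turn. Jag2 and Sema3g had lower means without passing (unadjusted p = 0.0539 and 0.0662 in limma).

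Of 7 venous genes, 6 were higher and 1 lower, with a median of 0.28. Those that passed were 1 higher and 1 lower, where 7.95% and 8.28% of all tested genes did. Vcam1, an adhesion molecule for leukocytes, passed higher at 4.56 and 4.41 against 7.25 and 7.29 FPKM (0.59 ± 0.15, unadjusted p = 0.0125), and Ephb4, a receptor of venous endothelium, passed lower at 15.2 and 13.6 against 10.7 and 10.8 FPKM (-0.38 ± 0.14, unadjusted p = 0.0417). Neither passed without any 1 library. Nr2f2 and Aplnr did not pass (unadjusted p = 0.537 and 0.123).

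Of 6 lymphatic genes, 3 were tested and all 3 were higher, with 1 passing, where 7.95% of all tested genes passed higher. Pdpn was at 1.17 and 0.87 against 3.02 and 2.39 FPKM (0.87 ± 0.23, unadjusted p = 0.0140), Lyve1 at 2.82 and 3.62 against 10.7 and 4.67 FPKM (unadjusted p = 0.0613), and Ccl21a overlapped (unadjusted p = 0.626). Prox1, the factor that defines lymphatic endothelium, was below the expression threshold. Pdpn and Lyve1 are also made outside lymphatic vessels, Lyve1 by some macrophages, whose list was higher, and the source of their fragments was not tested. The p of Pdpn was 0.0645 without Sox4f/f mouse 2.

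Among 13 regulators of Vegfa transcription, 4 passed lower and 1 higher, where 8.28% and 7.95% of all tested genes did. Ppargc1a, the coactivator PGC-1α, was at 48.2 and 22.4 FPKM in Sox4f/f and 13.2 and 14.2 FPKM in Sox4-MKO (log2 fold change -1.21 ± 0.37, unadjusted p = 0.0260, adjusted p = 0.254). Without Sox4f/f mouse 1, the highest of the 4 libraries, the log2 fold change was -0.67. Its p reached 0.115 when Sox4-MKO mouse 1 was left out, and 0.0957 when Sox4-MKO mouse 2 was. Ppargc1b, its paralogue, was at 36.0 and 36.3 against 14.7 and 17.6 FPKM (-1.12 ± 0.14, unadjusted p = 0.000721, adjusted p = 0.191) and passed without each library in turn. Esrra, the estrogen-related receptor they coactivate, was at 88.7 and 80.4 against 63.8 and 54.2 FPKM (-0.52 ± 0.14, unadjusted p = 0.0160). This p was 0.0973 without Sox4f/f mouse 1 and 0.0528 without Sox4f/f mouse 2.

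On the hypoxia arm, Hif1a was at 17.2 and 16.1 against 17.4 and 18.7 FPKM (0.11, unadjusted p = 0.435), and Epas1, which encodes HIF-2α and is abundant in endothelium, at 127.8 and 108.9 against 97.6 and 87.9 FPKM (-0.35, unadjusted p = 0.0579). Of the prolyl hydroxylases that mark HIF for degradation, Egln1 was at 78.0 and 68.8 against 58.9 and 43.7 FPKM (unadjusted p = 0.0410), and Egln3, itself a HIF target, was higher at 3.75 and 2.32 against 11.1 and 5.66 FPKM (1.18 ± 0.36, unadjusted p = 0.0260). Egln1 passed only without Sox4-MKO mouse 1 and Egln3 only without Sox4-MKO mouse 2, and Egln1 was at -0.31 in the fit lacking Sox4-MKO mouse 2, Egln3 at 0.75 in that lacking Sox4-MKO mouse 1. Adrb3, the β3-adrenergic receptor, overlapped (0.02, unadjusted p = 0.944). Of 10 tested HIF targets other than Vegfa, 3 were lower and 7 higher, with a median of 0.23. Among all tested genes 56% were below 0, 8.28% passed lower and 7.95% passed higher. Slc2a1, the glucose transporter GLUT1, passed lower at 5.49 and 4.94 against 3.82 and 3.08 FPKM (-0.49 ± 0.18, unadjusted p = 0.0486), and Egln3 was the 1 that passed higher. The p of Slc2a1 was over 0.05 whichever library was left out, from 0.0565 to 0.203 in limma. Ldha, Pgk1 and Bnip3 overlapped, and the first 2 are also abundant in skeletal muscle. Egln3 and the summed skeletal muscle genes were both highest in Sox4-MKO mouse 1 (11.1 and 13290 FPKM). Within Sox4f/f the mouse with the higher muscle sum had the lower Egln3, and the source of the Egln3 fragments was not tested.

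Among the tested genes with profiles closest to Vegfa over the 4 libraries, by the root mean square distance of log2(FPKM + 1) centred on each gene's mean, were Tusc1, Rccd1, Xab2 and Ripor1, at distances of 0.0149 to 0.0246. Those closest to Cdh5 were Ppp1r14a, Cacna1c, Slc25a34, Gm3289 and Fli1, at 0.0320 to 0.0438. Fli1, an ETS factor of endothelial and blood cells, was at 10.5 and 15.7 FPKM in Sox4f/f and 7.94 and 12.4 FPKM in Sox4-MKO. With 4 libraries such a likeness describes these profiles only.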

How the data were processed

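RNA was sequenced from BAT of 2 Sox4f/f and 2 Sox4-MKO mice, with the genotype and number of each mouse as labelled. The authors deposited 1 FPKM value per gene and library, made with Cufflinks 2.1.1 and Cuffdiff on mm10 per the submitters' processing notes. The aligner and annotation are not given in the sources used here. The labels name a column kit for RNA and a stranded library kit, the methods other reagents. FPKM are relative to all fragments, so a large share of one tissue component lowers the rest. Depth, estimated from the lowest values of genes with 1 transcript of at least 1500 nt, was 12100000 to 16300000 fragments per library and is approximate.

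From these values, log2(FPKM + 1) was tested with limma 3.58.1 in R 4.3.3 (genotype only, trended eBayes, two-sided) for the 12877 genes whose mean FPKM exceeded 1 in either genotype, the expression threshold of the study's methods, which also use p under 0.05 and name no test. Benjamini-Hochberg adjustment was over all 12877. The code was tested on simulated data. Nothing states whether the mice of a genotype differ in more than the animal. The limma p-values set a difference between the genotypes against the spread of these libraries, moderated across genes.

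The 10 genes and all lists were chosen with earlier results of these data known. Named genes are Sox4, the 10 genes, the other VEGF ligands and coreceptors, the angiopoietin and Tie genes, of every other vascular list the 3 with the largest change among those with an unadjusted p under 0.05 and the 3 most abundant (pan-endothelial 5), and the 5 nearest profiles to Vegfa and Cdh5, of which 1 is not reported here. Genes of the lists of other cell types are given by counts. Robo4, Arhgef15, Plvap, Rgcc, Gpihbp1, Egln1, Hif1a, Prox1 and Nck2 were named after their values were seen. The remaining lists gave 0 lower and 2 higher of 11 pericyte and smooth muscle genes, 1 higher of 2 tested platelet genes, 0 of 2 tested B and T cell genes, 1 lower of 6 pan-adipocyte genes and 0 of 4 tested Schwann cell genes. Among all tested genes 8.28% passed lower and 7.95% higher. All 10 symbols were among the 53288 of 55287 that matched a mouse gene table. Gene coordinates are from GENCODE on GRCm38. Other scalings, filters and pseudocounts, the mouse number as a block and each library left out were tried as alternatives. Figures were drawn with matplotlib 3.10.9.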

Additional observations from a re-analysis of the deposited data

How the results depend on the processing

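With 2 libraries per genotype, no gene passed an adjusted p in the reported fit, and 4 did without Sox4f/f replicate 2 and 1 without Sox4f/f replicate 1. Of 980 log2 fold changes of the 66 named genes over the alternatives, 810 kept their direction and side of the unadjusted threshold, 108 lost it, 35 gained it and 27 changed sign; the cause was not tested. Of all 12877 tested genes, 1066 passed the unadjusted threshold lower and 1024 higher in the reported fit. These counts were 746 and 1322 when the libraries were rescaled without mitochondrially encoded genes and Ucp1, and 165 and 2667 relative to the pan-endothelial list. Counting error is largest for Vegfc, with an estimated 26 to 88 fragments per library.

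Whether the same mouse number marks a pairing is not known. Deviations of mouse 1 from its group mean had r = -0.01 between the genotypes over 12877 genes. A value over all genes cannot exclude a pairing that acts on some of them. With the replicate block, 3 of the 10 genes were lower as before, pan-endothelial genes were 10 lower and 1 higher (6 and 2 without it), and 3 genes of VEGF receptor signalling were lower (0 without it). Of all 12877 tested genes, 938 passed lower and 970 higher with the block.

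Relative to the pan-endothelial list, 0 of the 10 genes were lower (3 in the reported fit), 1 pan-endothelial gene was lower and 5 were higher, and 9 signalling genes were higher (2). Over all 12877 tested genes, 165 passed lower and 2667 higher in that fit. Signs turned for Flt4 (0.0304), Pecam1 (0.15), Tek (0.0498), Angpt1 (0.14), Adgrf5 (0.0768), Pgk1 (0.0832) and Slc25a34 (0.0259). No moderation left 2 of the 10 genes lower, Vegfa no longer among them, and 1 pan-endothelial gene higher and 1 signalling gene lower and 1 higher. Without moderation 935 of all tested genes passed lower and 553 higher. Signalling genes were also 1 lower and 1 higher at an averaged FPKM above 0.1 and with no filter on FPKM, 1 higher at an averaged FPKM above 5, and 1 higher with quantile normalization, which turned Vegfc (-0.0653). Of all genes tested, 1117 passed lower and 1242 higher of 18336 above 0.1, and 1258 and 1314 of 22285 with no filter. Those passing higher were 684 of 8923 above 5 and 947 of 12877 with quantile normalization. Scaling to a common median turned Adrb3 (-2e-04).

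Without 1 replicate, the lone library of a genotype is assumed to vary like the other genotype. In those fits the median log2 fold change ranged from -0.50 to -0.11 for the 10 genes and from -0.35 to -0.215 for the pan-endothelial list. It ranged from -0.03 to 0.10 for signalling and from -0.09 to -0.01 for all tested genes. The log2 fold change ranged over leave-one-out fits as follows, with a change of sign in each: Sox4 -0.32 to 0.71, Vegfc -0.27 to 0.52, Cdh5 -0.63 to 0.0132, Tek -0.57 to 0.0939, Hsp90aa1 -1.24 to 0.48, Fabp4 -0.16 to 0.31, Lpl -0.0581 to 0.47, Cd36 -0.0461 to 0.40, Nr2f2 -0.14 to 0.50, Ccl21a -0.20 to 0.52, Adrb3 -0.35 to 0.39, Pgk1 -0.57 to 0.16, Bnip3 -0.0422 to 0.45, Slc25a34 -0.57 to 0.044 and Gm3289 -0.66 to 0.003. Log2 ratios to Cdh5 ranged from -0.60 to 0.25 for Vegfa, from -0.66 to 0.0844 for Vegfb, from -0.56 to 0.34 for Flt1, from -0.20 to 0.0713 for Flt4, from -0.48 to 0.0836 for Nrp1 and from -0.0994 to 0.45 for Pecam1.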
